A study of Mus musculus with 25 samples.

Results

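The bile acid transporters of the hepatocyte and the receptor pair that governs them, FXR and SHP, were followed as 10 genes through liver RNA sequencing. The genes were chosen by name for their known function, with earlier results of these data known. They were Nr1h4, Nr0b2, Slc10a1, Slco1a1, Slco1a4, Slco1b2, Abcb11, Abcb4, Abcc2 and Abcc3, which is 10 of 41388 gene identifiers in the files, and all 10 were among the 14065 genes kept by the filter on low counts (more than 1 CPM, the count scaled to library size, in at least 2 libraries). The 25 libraries came from livers of male C57B/6J mice with floxed Sirt1 alleles (LoxP/LoxP), labelled as 20 weeks old. Littermates without Cre are called WT, and mice that also carry Albumin-Cre, which is active in hepatocytes, are called LKO. Every mouse, control or not, received an AAV8 virus by tail vein that carried either no insert (empty vector, EV) or NAMPT, under the thyroxine-binding globulin promoter, which is also a hepatocyte promoter. NAMPT makes the NAD precursor nicotinamide mononucleotide, and SIRT1 is a protein deacetylase that uses NAD. The groups were chow WT EV (n = 3) and 4 groups on Western diet (WD, a feed rich in fat, sucrose and cholesterol), which were WD WT EV (n = 6), WD WT NAMPT (n = 6), WD LKO EV (n = 5) and WD LKO NAMPT (n = 5). The labels give 12 weeks of study, and the study describes 12 weeks of chow or Western diet. The treatment text of the labels names the insert as SIRT1, whereas the sample titles name NAMPT, and the titles were followed.

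Bile acids are made from cholesterol in hepatocytes, secreted into bile, reabsorbed in the ileum and returned to the liver in portal blood. NTCP (Slc10a1) takes up conjugated bile acids with sodium at the basolateral, blood-facing membrane, and the organic anion transporters Oatp1a1 (Slco1a1), Oatp1a4 (Slco1a4) and Oatp1b2 (Slco1b2) take up unconjugated bile acids and other anions there. At the canalicular membrane, BSEP (Abcb11) pumps bile salts into bile, MDR2 (Abcb4) moves phosphatidylcholine into bile, and MRP2 (Abcc2) exports conjugated bilirubin and other conjugates. MRP3 (Abcc3) returns anions to the blood at the basolateral side. FXR (Nr1h4) is the nuclear receptor that senses bile acids, and SHP (Nr0b2) is the repressor that FXR induces and that acts on the synthesis enzymes Cyp7a1 and Cyp8b1.

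Total counts ran from 20166175 to 32937326 per library. The 10 hepatocyte marker genes summed to between 53780 and 93390 CPM in the chow WT EV, WD WT EV and WD WT NAMPT groups, and the lowest of these sums was in WD WT NAMPT replicate 2. Sirt1, the gene targeted in LKO mice, had a mean of 8.86 CPM and an SD of 0.57 over the WD WT EV libraries, beside 8.57 CPM and 1.34 over the libraries labelled LKO EV, so the count over the whole gene did not show the deletion and does not check that label. Nampt had a mean of 47.35 CPM with empty vector (SD 6.46) and of 59.5 CPM with NAMPT (SD 10.6) in the WT mice on Western diet, a log2 difference of 0.34 ± 0.16 (SE, limma adjusted p = 0.144). WD WT NAMPT replicates 2 and 4, at 46.8 and 52.1 CPM, lay within the empty vector range of 38.3 to 54.1 CPM. In the libraries labelled LKO, Nampt had a mean of 56.1 CPM with empty vector (SD 11.96) and 79.95 CPM with NAMPT (SD 28.38). The log2 difference was 0.41 ± 0.16 (SE, limma adjusted p = 0.403). WD LKO NAMPT replicates 1, 4 and 5, at 73.6, 62.15 and 53.94 CPM, lay within the LKO empty vector range of 46.0 to 75.6 CPM. Replicate 3 of that group was highest at 126.6 CPM. Some libraries stood apart from the rest of their group for the genes examined here. Chow replicate 3 was the lowest of its group for 7 of the 10 genes, WD WT NAMPT replicate 2 was the lowest for 5, and WD LKO NAMPT replicate 1 was the lowest for 6. WD WT EV replicate 4 and WD LKO EV replicate 1 were also each the lowest for 5. Chow replicate 1 and WD LKO EV replicate 4 were each the highest for 5. WD WT NAMPT replicate 6 was the highest of its group for 6 genes and lay above all WD WT EV libraries for 3.

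In the deposited annotation (GRCm38), the 4 uptake transporters lie on 2 chromosomes. Slc10a1 (ENSMUSG00000021135) has 5 exon blocks on the minus strand of chromosome 12 from 80953185 to 80968079. Slco1b2 (ENSMUSG00000030236), Slco1a4 (ENSMUSG00000030237) and Slco1a1 (ENSMUSG00000041698) are neighbours on chromosome 6, from 141629518 to 141686646, 141805440 to 141856199 and 141907282 to 141946962. Slco1a1 and Slco1a4 have close relatives in the same cluster, so the division of reads among those copies is uncertain. Abcb11 (ENSMUSG00000027048) lies on chromosome 2 from 69238282 to 69342616, and 155 of its 5146 exon bases overlap Gm13613 and Gm13614 on the other strand, whose reads cannot be told apart when strand is not used in counting. Nr1h4 (ENSMUSG00000047638) is on chromosome 10 from 89454234 to 89533585, Nr0b2 (ENSMUSG00000037583) on chromosome 4 from 133553376 to 133556536, Abcb4 (ENSMUSG00000042476) on chromosome 5 from 8893721 to 8959225, Abcc2 (ENSMUSG00000025194) on chromosome 19 from 43782192 to 43840740, and Abcc3 (ENSMUSG00000020865) on chromosome 11 from 94343295 to 94392997. No exon overlap with another gene was found for these other 9 genes.

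The upstream sequences of Slc10a1, Slco1b2 and Abcb11 are shown as examples of transporters whose levels went up and down together from library to library, as described further on. RefSeq promoter windows (GRCm38.p6) matched 9 of the 10 genes. Each line gives the 250 bases before the start site, 5′ to 3′ on the gene's own strand, at chr12:80968080-80968329 (minus strand), chr6:141629268-141629517 (plus strand) and chr2:69342617-69342866 (minus strand). Capitals mark the nuclear receptor half-site AGGTCA or its reverse complement TGACCT.
Slc10a1: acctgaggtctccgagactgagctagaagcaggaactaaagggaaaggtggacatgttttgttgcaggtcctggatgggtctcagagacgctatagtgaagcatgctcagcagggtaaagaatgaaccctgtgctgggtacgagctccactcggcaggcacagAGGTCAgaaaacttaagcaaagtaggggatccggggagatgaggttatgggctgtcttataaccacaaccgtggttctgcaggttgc
Slco1b2: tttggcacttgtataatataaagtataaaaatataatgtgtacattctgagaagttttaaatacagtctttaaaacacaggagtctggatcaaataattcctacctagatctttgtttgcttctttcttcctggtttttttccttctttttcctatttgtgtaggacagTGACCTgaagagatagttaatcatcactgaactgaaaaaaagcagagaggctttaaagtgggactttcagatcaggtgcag
Abcb11: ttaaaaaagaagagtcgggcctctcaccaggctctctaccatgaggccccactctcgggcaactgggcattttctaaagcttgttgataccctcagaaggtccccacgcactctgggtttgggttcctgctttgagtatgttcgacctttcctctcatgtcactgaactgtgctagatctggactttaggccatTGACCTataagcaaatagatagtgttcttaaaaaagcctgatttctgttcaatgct
The half-site begins 87 bases before the start in Slc10a1, 81 in Slco1b2 and 56 in Abcb11. At least 1 half-site was also present in the windows of Slco1a1, Nr1h4 and Abcc2 (the Nr1h4 window belongs to a RefSeq start inside the gene, 26927 bases from the start in the files), while none was in those of Nr0b2, Abcb4 and Slco1a4, nor in the window of a second Slc10a1 start 626 bases upstream. Of 32851 promoter windows of this length, 14.02% held AGGTCA on either strand. An exact match to the full inverted repeat with 1 base between the half-sites (AGGTCANTGACCT, which contains AGGTCA) was in 0.006088% of windows and in none of the windows of these genes. Near matches were not searched for. In the Abcb11 window the bases aggccatTGACCT differ from this repeat by 1 base. A match of letters is a description only.

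Per length of transcript, the uptake transporters Slc10a1 and Slco1b2 had the highest mean levels of the 10 genes in every group. In WD WT EV, Slc10a1 averaged 327 ± 74.1 RPKM (SD, n = 6; reads scaled to transcript length and to TMM-normalized library size) and Slco1b2 208 ± 47.9 RPKM. The canalicular pumps followed, with Abcb11 at 96.1 ± 9.79, Abcb4 at 82.2 ± 11.4 and Abcc2 at 80.6 ± 10.95 RPKM. Abcc3 was at 67.1 ± 16.1, Slco1a1 at 55.7 ± 36.4, Nr0b2 at 45.4 ± 17.1 and Nr1h4 at 36.03 ± 3.78 RPKM. Slco1a4 was lowest at 7.53 ± 2.73 RPKM. Neighbours in this order overlapped between libraries, apart from the steps from Slco1b2 to Abcb11 and from Nr1h4 to Slco1a4. Chow livers had the same pair at the top, with Slc10a1 at 313 ± 61.1 RPKM (SD, n = 3) and Slco1b2 at 160 ± 61.9 RPKM, but there Slco1a4 was at 27.2 ± 3.21 RPKM, which overlapped with Nr0b2. All further levels are TMM-normalized CPM of a gene compared with itself, and all differences are on the log2 scale with the SE of the limma fit.

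**Figure D1:**
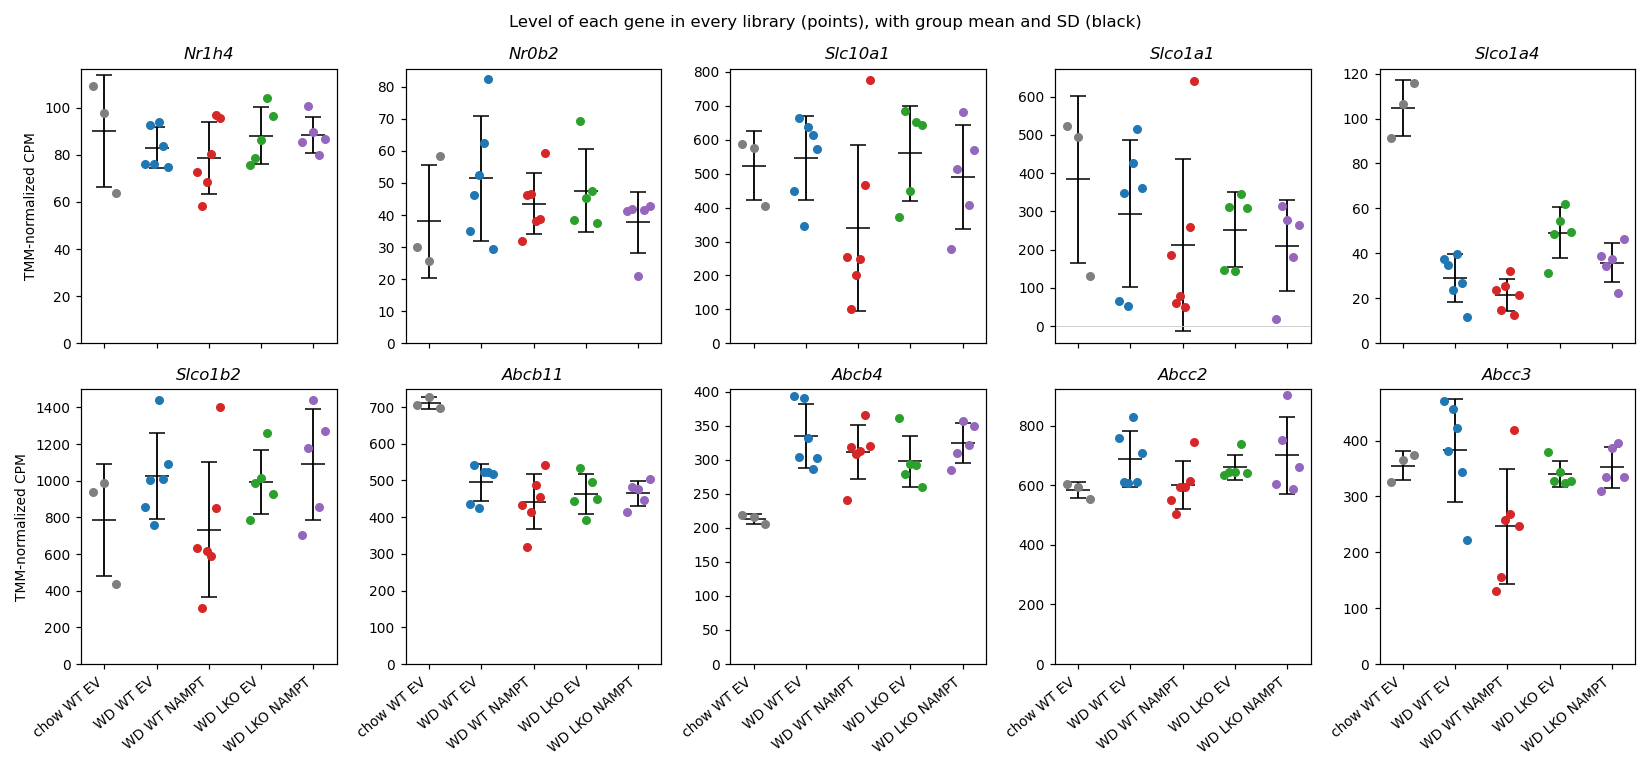
TMM-normalized CPM (y axis, linear) of the 10 genes in the 5 groups (x axis), 1 coloured point a library, with the group mean and SD in black. Chow libraries stand apart from all WD WT EV libraries for Slco1a4 (91.5 to 116 against 11.6 to 39.7), Abcb11 and Abcb4, and the WD WT NAMPT libraries spread from 100 to 776 for Slc10a1.

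The comparison of WD WT EV with chow WT EV asked what the Western diet did in mice with the control virus. The diet groups differed most at Slco1a4, which was 3.56-fold lower on Western diet. Abcb11, the bile salt export pump, was also lower, while the phospholipid transporter Abcb4 and the FXR-induced repressor Nr0b2 were higher. Nr1h4 itself did not pass the test. In all, 2 of the 10 genes rose and 2 fell at an adjusted p of 0.05 or less (from here on, called), where 22% of all genes tested were called, 10.1% higher and 12.0% lower. All 4 also had an unadjusted p under 0.05, as did 35.1% of all genes. The median log2 difference was 0.04 over the 10 genes and -0.00 over all genes.

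Slco1a4, an uptake transporter of bile acids and drugs, was at 91.5, 106 and 116 CPM in the 3 chow libraries. On Western diet it ran from 11.6 CPM in replicate 8 through a median of 30.8 to 39.7 CPM in replicate 6, so the lowest chow library lay above the highest WD library. The log2 difference was -1.83 ± 0.26 (SE, limma adjusted p = 2.25e-05). Abcb11 was at 706, 728 and 697 CPM on chow and between 424 and 543 CPM on Western diet, with a median of 520. These groups did not overlap either, and Abcb11 fell by 0.52 ± 0.10 on the log2 scale (limma adjusted p = 0.000622). Abcb4 was at 218, 216 and 205 CPM on chow and ran from 287 through a median of 318 to 394 CPM on Western diet. It rose by 0.61 ± 0.09 (limma adjusted p = 6.64e-05), again with no overlap. These 3 calls held under all 8 alternative settings and in all 9 fits that left out 1 library. Without chow replicate 3, the library that stood apart, the log2 differences were -1.79 for Slco1a4, -0.53 for Abcb11 and 0.60 for Abcb4.

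The 2 canalicular ATP-binding cassette pumps Abcb11 and Abcb4 thus moved in opposite directions by similar amounts, while Abcc2, the conjugate export pump, was at 553 to 603 CPM on chow and 607 to 830 CPM on Western diet. Abcc2 libraries did not overlap, but the difference of 0.19 ± 0.10 missed the threshold (limma adjusted p = 0.167). With Abcc2, 4 of the 10 genes had groups that did not overlap, where 16.1% of all genes had. Abcc3 differed by 0.10 ± 0.18, and its groups overlapped.

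Of the receptors, Nr0b2 was at 30.1, 25.8 and 58.3 CPM in chow replicates 1, 2 and 3, and ran from 29.3 through a median of 49.4 to 82.5 CPM on Western diet. The groups overlapped, and the call (0.67 ± 0.23, limma adjusted p = 0.0363) was made under 2 of 8 alternatives and in 3 of 9 fits with 1 library left out. The difference was 0.20 (adjusted p = 0.782) without chow replicate 2 and 0.30 (adjusted p = 0.639) without chow replicate 1. It was 0.69, 0.65, 0.61 and 0.55 without WD WT EV replicates 2, 4, 6 and 7, with adjusted p-values of 0.052, 0.0545, 0.0696 and 0.0679. Nr1h4 was at 109, 97.6 and 63.6 CPM on chow and between 74.9 and 94.0 CPM on Western diet, and its difference of -0.20 ± 0.12 was not called (limma adjusted p = 0.254). The other uptake transporters overlapped widely between diets. Slco1a1 ran from 51.7 to 515 CPM on Western diet and from 132 to 524 CPM on chow, a difference of -0.96 ± 0.69 (limma adjusted p = 0.333), while Slc10a1 differed by -0.02 ± 0.27 and Slco1b2 by 0.20 ± 0.22.

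Among 19 of 22 other transport genes that were kept, 4 rose and 3 fell with Western diet, and 1 fell without chow replicate 1 or 2 or WD WT EV replicate 1 or 4, with edgeR or DESeq2, or without quality weights or the filter on low counts. Abcg5 and Abcg8, the pair that exports cholesterol into bile, rose by 2.55 ± 0.23 (limma adjusted p = 3.6e-08) and 2.02 ± 0.24 (3.24e-06), with no overlap between libraries. Slco2a1, a prostaglandin transporter, fell by 1.80 ± 0.22 (2.7e-06), and Slc10a2, the sodium-dependent bile acid transporter best known from ileum and bile duct, rose by 1.29 ± 0.29 (0.0024) but was not called without chow replicate 1, chow replicate 2 or quality weights. In the bile acid synthesis list (16 genes, all kept), 1 rose and 2 fell. Over the 8 alternatives the number that fell ran from 1 with edgeR, DESeq2 or no quality weights to 6 when scaled by library size only and 8 with the replicate block, and the number that rose ran from 0 to 2. The enzymes Cyp39a1 and Cyp7b1, both oxysterol 7-alpha-hydroxylases, fell by 1.38 ± 0.20 (3.94e-05) and 1.90 ± 0.52 (0.0103), and Slc27a2, which activates bile acids and very long chain fatty acids, rose by 0.56 ± 0.14 (0.0051). Cyp7b1 was not called without chow replicate 1 or 2, nor with edgeR, DESeq2 or no quality weights, and Slc27a2 was not called without chow replicate 1, nor with edgeR, no quality weights or the replicate block. Cyp7a1, the rate-limiting enzyme of bile acid synthesis, was at 348, 195 and 59.0 CPM on chow and averaged 88.8 ± 75.4 CPM (SD, n = 6) on Western diet, a difference of -1.26 ± 0.49 (adjusted p = 0.0668). Cyp8b1, the sterol 12-alpha-hydroxylase of cholic acid synthesis, differed by -0.61 ± 0.32 (adjusted p = 0.172).

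Of 10 kept genes on a list of other FXR targets, 3 rose and 3 fell. The apolipoprotein gene Apoc2 rose by 1.52 ± 0.14 (limma adjusted p = 4.35e-08) and Insig2, a regulator of sterol synthesis, by 0.96 ± 0.22 (0.00367). Fetub fell by 0.74 ± 0.16 (0.00156) and Osgin1 by 1.37 ± 0.29 (0.00162). On the list of FXR partners and upstream regulators, Cebpb rose by 1.02 ± 0.20 (0.000983) and Nr5a2 fell by 0.31 ± 0.11 (0.0481). The fall of Nr5a2 was called under 2 of 8 alternatives and in 3 of 9 fits that left out 1 library, and Cebpb and Fetub were not called without chow replicate 2, nor Cebpb without chow replicate 1.

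Several other gene lists held genes called with the diet. Of 16 clock genes, 6 rose and 5 fell, and the labels give no hour of tissue collection. Without chow replicate 1 these counts were 1 and 2, and without chow replicate 2 they were 0 and 2. Arntl was at 34.1 CPM on chow and 12.1 CPM on Western diet, a difference of -1.58 ± 0.30 (limma adjusted p = 0.000594). Of 10 periportal genes 6 fell, of 12 male-biased genes 5 fell and 1 rose, and of 10 hepatocyte markers 3 fell, led by Cyp3a11 (2035 against 9198 CPM). Without chow replicate 1 or 2, the number that fell was 0 for male-biased genes and 1 for hepatocyte markers, and it was 2 for male-biased genes without WD WT EV replicate 1 or 4. No male-biased gene was called lower with edgeR, DESeq2 or without quality weights. Of 14 acute phase genes 4 rose and 4 fell, where the number that rose was 0 without chow replicate 1 or 2, the number that fell was 1 without chow replicate 2 or 3 or WD WT EV replicate 1 or 4 and 2 without WD WT EV replicate 6 or 7, and both were 1 without quality weights. Of 10 stellate cell markers 2 rose, and 1 did without chow replicate 1 or 2, WD WT EV replicate 1 or 4 or quality weights, or with edgeR. Of 10 endothelial markers 1 rose and 2 fell, with both counts 0 with edgeR or without quality weights. The endothelial count that rose was 0 without chow replicate 1 or 2. The endothelial count that fell was 0 without chow replicate 1, 2 or 3 or WD WT EV replicate 1, 4 or 7. Of 8 kept female-biased genes 2 fell. The macrophage list had 2 of its 10 genes called higher, where 10.1% of all genes were, and 0 without chow replicate 1 or 2, with edgeR or without quality weights. It had 1 without WD WT EV replicate 1 or 2. Its summed level was 298 to 365 CPM on chow and 354 to 513 CPM on Western diet. The part of these lists in the transporter differences was not tested.

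**Figure D2:**
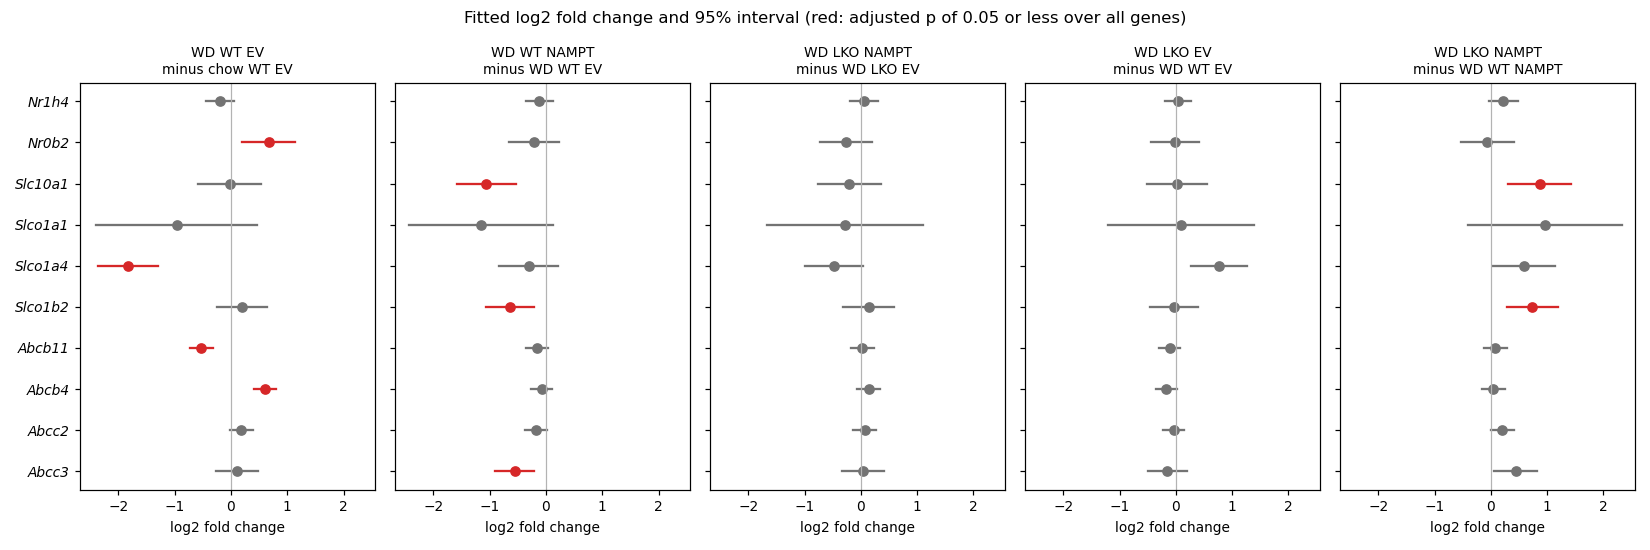
Fitted log2 fold change (x axis, first group minus second) of the 10 genes (y axis) in 5 comparisons, with 95% intervals of the limma fit as bars and red for an adjusted p of 0.05 or less. In the diet panel 4 genes are red, in the panel of NAMPT in WT 3 are red on the negative side, and in both the panel of NAMPT in LKO and that of LKO against WT with empty vector none is.

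NAMPT in WT mice was compared with the empty vector on Western diet. The basolateral uptake transporters Slc10a1 and Slco1b2 and the basolateral efflux pump Abcc3 were lower in WD WT NAMPT, by 2.08-fold, 1.55-fold and 1.47-fold. Cyp8b1 was 3.60-fold lower, and its libraries did not overlap. The canalicular pumps Abcb11, Abcb4 and Abcc2 and the receptors Nr1h4 and Nr0b2 did not pass the test. In all, 3 of the 10 genes were called lower and 0 higher, where 13.4% of all genes were called, 7.67% higher and 5.77% lower. The same 3 had an unadjusted p under 0.05, where 30.3% of all genes had. All 10 estimates were negative, with a median of -0.26 against 0.00 over all genes tested, although Nr1h4 and Abcb4 were positive when scaled by library size only and Slco1a1 and Abcb11 were positive with the replicate block. None of the 10 genes had groups that did not overlap, where 0.96% of all genes had.

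Slc10a1 ran from 100 CPM in replicate 2 through a median of 251 to 776 CPM in replicate 6 of WD WT NAMPT, and from 347 through 594 to 663 CPM in WD WT EV. Of the 6 NAMPT libraries, 4 lay below every EV library and replicate 6 lay above every one. The difference was -1.06 ± 0.26 (SE, limma adjusted p = 0.0137). It was called under 3 of 8 alternatives, and in 10 of 12 fits with 1 library left out. The exceptions were -0.91 (adjusted p = 0.0657) without WD WT EV replicate 2 and -0.85 (0.0791) without WD WT NAMPT replicate 3. Without replicate 6, it was -1.22 (0.00203).

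Slco1b2 ran from 307 CPM in replicate 2 through a median of 626 to 1400 CPM in replicate 6 of WD WT NAMPT, and from 760 through 1007 to 1442 CPM in WD WT EV. Again 4 NAMPT libraries lay below every EV library. The difference of -0.63 ± 0.21 (limma adjusted p = 0.0424) was called under 1 of 8 alternatives and in 4 of 12 fits with 1 library left out. The 8 fits in which it was not called ranged from -0.52 (adjusted p = 0.126, without WD WT EV replicate 6) to -0.63 (0.0614, without WD WT EV replicate 7), and the other libraries among them were WD WT EV replicates 2 and 8 (adjusted p = 0.122 and 0.0703) and WD WT NAMPT replicates 1, 2, 3 and 4 (0.0706, 0.102, 0.136 and 0.0883).

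Abcc3 ran from 130 CPM in replicate 1 through a median of 253 to 419 CPM in replicate 5 of WD WT NAMPT, and from 222 CPM in replicate 8 through 402 to 470 CPM in WD WT EV. The groups overlapped over most of their range. Its difference was -0.56 ± 0.17 (limma adjusted p = 0.0337), called under 3 of 8 alternatives and in 5 of 12 fits with 1 library left out. Without WD WT EV replicates 1, 2, 4 and 6 the adjusted p-values were 0.062, 0.0815, 0.0517 and 0.0814, and without WD WT NAMPT replicates 1, 2 and 3 they were 0.0748, 0.0959 and 0.105, with differences from -0.57 to -0.43. None of the 3 genes was called when sample quality weights were left out (adjusted p = 0.11 for Slc10a1, 0.192 for Slco1b2 and 0.068 for Abcc3).

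The remaining uptake transporters had differences of -1.15 ± 0.62 for Slco1a1 (limma adjusted p = 0.215) and -0.31 ± 0.26 for Slco1a4 (0.434). Slco1a1 ran from 49.4 to 640 CPM in WD WT NAMPT. At the canaliculus, Abcb11 differed by -0.16 ± 0.09 with a 95% interval of -0.35 to 0.04, Abcb4 by -0.08 ± 0.09 (-0.27 to 0.12) and Abcc2 by -0.18 ± 0.09 (-0.37 to 0.01). Nr1h4 differed by -0.12 ± 0.12 (-0.36 to 0.13) and Nr0b2 by -0.21 ± 0.21 (-0.65 to 0.23).

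Bile acid synthesis genes were lower as well, with 7 of 16 called lower and 0 higher and a median of -0.39. Cyp8b1 ran from 39.9 through a median of 102 to 329 CPM in WD WT NAMPT, and from 350 through 409 to 509 CPM in WD WT EV. Its difference of -1.85 ± 0.28 (limma adjusted p = 0.00316) was called under all 8 alternatives and in all 12 fits with 1 library left out. Akr1d1, the 5-beta-reductase of the pathway, fell by 0.87 ± 0.20 (0.0122), Slc27a2 by 0.53 ± 0.13 (0.0158) and Hsd3b7, which oxidizes the sterol ring, by 0.45 ± 0.12 (0.0174), called under 6, 3 and 3 of 8 alternatives. The count of 7 was 1 without WD WT EV replicate 2 or WD WT NAMPT replicate 3, 3 without WD WT EV replicate 6 or WD WT NAMPT replicate 2, and 9 without WD WT NAMPT replicate 6. It was also 1 with edgeR or without quality weights, where Cyp8b1 was the gene called. Cyp7a1 differed by -0.16 ± 0.46 (adjusted p = 0.847).

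Of the other transport genes, 3 of 19 were called higher and 2 lower. The half-transporter Abcg2 fell by 0.52 ± 0.15 (limma adjusted p = 0.0265) and Rdx, the membrane linker radixin, by 0.22 ± 0.07 (0.0368). Slc51b, a subunit of the basolateral organic solute transporter, was at 0.793 CPM in WD WT NAMPT and 0.364 CPM in WD WT EV, a rise of 1.402 ± 0.44 (0.0361), and the linker Ezr rose by 0.64 ± 0.20 (0.0391). Of the 8 alternatives, 1 called Abcg2, 1 Rdx, 2 Slc51b and 2 Ezr. Both counts were 0 without WD WT EV replicate 2 or 6 or WD WT NAMPT replicate 1, 2 or 3. Among other FXR targets, 1 of 10 was called higher (the same Slc51b) and 1 lower, which was Insig2 at -0.76 ± 0.22 (0.0265), called under 5 of 8 alternatives, and both counts were 0 without WD WT EV replicate 2 or 6 or WD WT NAMPT replicate 2 or 3. Of the FXR partners and upstream regulators, 1 of 18 was called, Nr1i3, which encodes the xenobiotic receptor CAR and fell by 0.95 ± 0.22 (0.0128). It was not called without WD WT EV replicate 2 or WD WT NAMPT replicate 3, nor with edgeR, DESeq2, no quality weights or the replicate block.

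Markers of some other liver cells moved in the opposite direction, while 0 of 6 kept cholangiocyte markers were called and, of 10 endothelial markers, 1 rose and 2 fell (median -0.02), which were 0 with edgeR or without quality weights. Both endothelial counts were also 0 without WD WT EV replicate 2 or WD WT NAMPT replicate 3. Of 10 macrophage markers 7 rose, with a median of 0.91, and all 10 were kept. The summed macrophage level ranged from 354 to 513 CPM in WD WT EV and from 339 to 1040 CPM in WD WT NAMPT. Csf1r rose by 0.64 ± 0.13 (limma adjusted p = 0.00878), Lyz2 by 1.14 ± 0.26 (0.0124) and Cd68 by 0.995 ± 0.23 (0.0124). Of 10 neutrophil markers 6 were kept and 2 rose, with sums of 2.98 to 9.03 CPM in WD WT EV and 4.26 to 29.9 CPM in WD WT NAMPT, while Ly6g, Cxcr2, Mpo and Elane did not pass the filter. Of 10 stellate cell markers 5 rose, with sums of 301 to 496 and 306 to 758 CPM. Of 14 acute phase genes 5 rose, of 10 pericentral genes 3 fell and of 16 clock genes 5 fell, while of 10 hepatocyte markers 1 fell and 0 rose. These counts turned on single libraries: without WD WT NAMPT replicate 3, they were 0 for macrophage, neutrophil, acute phase and clock genes and 1 for stellate cell genes. Without WD WT NAMPT replicate 2, the macrophage count was 6, and without replicate 6 it was 8. The pericentral count was 0 without WD WT NAMPT replicate 2 or 3 or WD WT EV replicate 2 or 6, 8 without WD WT NAMPT replicate 5 and 6 without replicate 6. The acute phase count was also 0 without WD WT EV replicate 2 and was 10 and 9 without WD WT NAMPT replicates 5 and 6. Over all 12 such fits, the ranges were 0 to 8 for macrophage, 0 to 3 for neutrophil, 1 to 5 for stellate cell and 0 to 5 for clock genes. Without quality weights the counts were 0 for macrophage, neutrophil, stellate cell, acute phase and pericentral genes, and with edgeR they were 5, 1, 1, 0 and 0. The clock count was 1 without quality weights or without the filter on low counts.

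The level of the transporters and the macrophage sum can be set side by side in single libraries. WD WT NAMPT replicates 5 and 6, with 575 and 339 CPM of macrophage markers, had Slc10a1 at 467 and 776 CPM. Replicates 1, 2, 3 and 4, with 1040, 957, 1012 and 698 CPM of macrophage markers, had Slc10a1 at 254, 100, 200 and 248 CPM. In WD WT NAMPT replicates 1 to 6, the hepatocyte marker sums were 69610, 53780, 59110, 75040, 60740 and 65560 CPM. The pericentral sums in the same order were 4407, 2599, 4923, 4898, 8495 and 10380 CPM. In the other NAMPT group, WD LKO NAMPT replicate 1 had the most macrophage marker RNA of its group (788 CPM) and the lowest Slc10a1 (279 CPM), Slco1b2 (701 CPM) and Cyp8b1 (156 CPM). The part of other cell types in the transporter differences was not tested, and in whole liver a lower share of hepatocyte RNA and less transporter RNA per hepatocyte cannot be told apart.

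**Figure D3:**
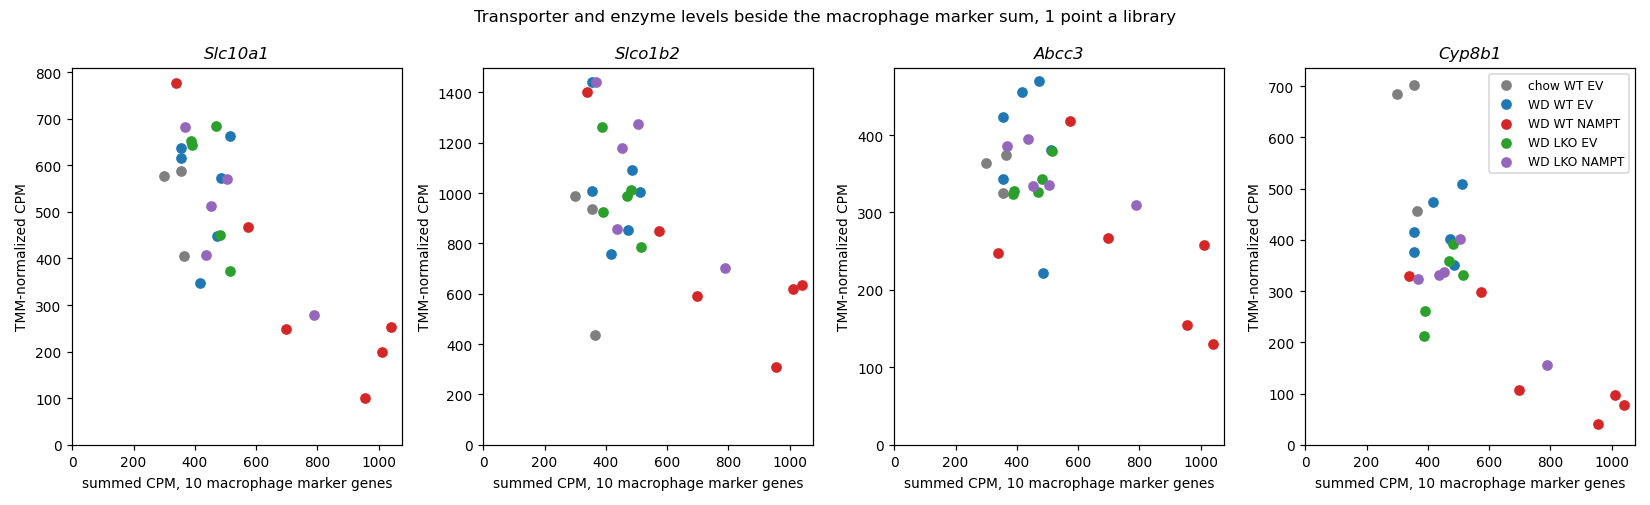
Level of Slc10a1, Slco1b2, Abcc3 and Cyp8b1 (y axis, TMM-normalized CPM) against the summed CPM of 10 macrophage marker genes (x axis), 1 point a library, coloured by group. The 4 WD WT NAMPT libraries at 698 CPM or more on the x axis have the 4 lowest Cyp8b1 levels of all libraries, and WD WT NAMPT replicate 6 (339 CPM) lies among the empty vector libraries for Slco1b2.

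NAMPT in the libraries labelled LKO was compared with the empty vector in the same genotype. None of the 10 genes was called by limma, the edgeR quasi-likelihood test or DESeq2, and 0 had an unadjusted p under 0.05, where 0.00711% of all genes were called and 9.63% had an unadjusted p under 0.05. No gene had groups that did not overlap (1.15% of all genes had). The estimates were positive for 6 genes and negative for 4, with a median of 0.03 against 0.02 over all genes. Slc10a1 was at 279, 513, 681, 407 and 571 CPM in WD LKO NAMPT replicates 1 to 5 and at 373, 684, 450, 653 and 643 CPM in the empty vector replicates. The groups overlapped, and the difference was -0.20 ± 0.27 (95% interval -0.77 to 0.36). Slco1b2 differed by 0.14 ± 0.22 (-0.32 to 0.59) and Abcc3 by 0.04 ± 0.18 (-0.33 to 0.41). Nr1h4 differed by 0.06 ± 0.12, Nr0b2 by -0.26 ± 0.22 and Slco1a4 by -0.48 ± 0.25. The intervals for Abcb11 (-0.18 to 0.23), Abcb4 (-0.06 to 0.34) and Abcc2 (-0.13 to 0.27) were the narrowest, while that of Slco1a1 ran from -1.66 to 1.10. Leaving out WD LKO NAMPT replicate 1 turned the Slco1a1 estimate from -0.28 to 0.17, and neither was called. Cyp8b1 averaged 309.6 ± 91.4 CPM (SD, n = 5) with NAMPT and 310.4 ± 73.7 CPM with empty vector, a difference of 0.03 ± 0.30, and Cyp7a1 differed by 0.37 ± 0.48. The other transport, synthesis, FXR target and regulator lists had 0 called genes each, and 2, 1, 1 and 0 genes with an unadjusted p under 0.05.

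The libraries labelled LKO EV were compared with WD WT EV for the genotype alone. None of the 10 genes was called by limma, the edgeR quasi-likelihood test or DESeq2, where 0.00711% of all genes were called, and 1 of 10 had an unadjusted p under 0.05 (6.33% of all genes had). No gene had groups that did not overlap, where 0.59% of all genes had. That gene was Slco1a4, which was at 31.1, 48.5, 54.2, 62.0 and 49.7 CPM in WD LKO EV replicates 1 to 5 and ran from 11.6 through a median of 30.8 to 39.7 CPM in WD WT EV. Replicate 1 lay within the WT range and the other 4 lay above it. The difference of 0.76 ± 0.24 had an unadjusted p of 0.0042 and an adjusted p of 0.55. The other 9 differences lay between -0.17 (Abcb4) and 0.09 (Slco1a1). Nr1h4 differed by 0.04 ± 0.11 (95% interval -0.19 to 0.28), Abcb11 by -0.11 ± 0.09 (-0.29 to 0.08) and Slc10a1 by 0.01 ± 0.26 (-0.52 to 0.55). The differences were -0.01 ± 0.21 for Nr0b2, -0.03 ± 0.20 for Slco1b2, -0.04 ± 0.09 for Abcc2 and -0.16 ± 0.17 for Abcc3. Cyp8b1 differed by -0.46 ± 0.29 (adjusted p = 0.88) and Cyp7a1 by 0.01 ± 0.45. The 4 companion lists had 0 called genes. Summed over 12 male-biased genes, the levels were 2872 to 3516 CPM in WD LKO EV and 2489 to 6622 CPM in WD WT EV, with a median difference of -0.54, 0 genes called and 6 of 12 at an unadjusted p under 0.05. Over 12 female-biased genes the sums were 92.6 to 226 CPM and 27.2 to 229 CPM. The 8 that were kept had a median difference of 1.09, with 0 called and 3 of 8 at an unadjusted p under 0.05. The part of these genes in the Slco1a4 difference was not tested.

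Between the 2 NAMPT groups, the uptake transporters Slc10a1 and Slco1b2 were higher in the libraries labelled LKO NAMPT than in WD WT NAMPT, by 1.82-fold and 1.67-fold. The receptors, the canalicular pumps and Abcc3 were not called. In all, 2 of 10 genes were called higher and 0 lower, where 7.96% of all genes were called, 4.18% higher and 3.78% lower. An unadjusted p under 0.05 was found for 4 genes, where 28.6% of all genes had one. The estimates were positive for 9 of the 10 genes, with a median of 0.33 against -0.01 over all genes, although Abcb11 and Abcb4 were negative when scaled by library size only and Slco1a1 was negative with edgeR and DESeq2. No gene had groups that did not overlap (1.39% of all genes had). This comparison shares the WD WT NAMPT libraries with that of NAMPT in WT, so the directions of both are linked.

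Slco1b2 was at 701, 1178, 1441, 858 and 1273 CPM in WD LKO NAMPT replicates 1 to 5, against a median of 626 CPM in WD WT NAMPT. Only WD WT NAMPT replicates 5 and 6 lay within the range of the LKO libraries. The difference was 0.74 ± 0.22 (limma adjusted p = 0.0425), called under 1 of 8 alternatives and in 4 of 11 fits with 1 library left out. Without WD WT NAMPT replicates 1, 2, 3 and 4 the adjusted p-values were 0.068, 0.0967, 0.125 and 0.0903, and without WD LKO NAMPT replicates 2, 3 and 5 they were 0.256, 0.095 and 0.188, with differences from 0.61 to 0.69. Slc10a1 differed by 0.87 ± 0.27 (limma adjusted p = 0.0497), called under 0 of 8 alternatives and in 4 of 11 such fits. Without WD WT NAMPT replicates 1, 2, 3 and 4 its adjusted p-values were 0.083, 0.124, 0.19 and 0.0744, and without WD LKO NAMPT replicates 2, 3 and 5 they were 0.25, 0.103 and 0.195, with differences from 0.64 to 0.88. Without WD WT NAMPT replicate 6 the differences were 0.83 for Slco1b2 (0.0123) and 1.03 for Slc10a1 (0.00968). Abcc3 differed by 0.44 ± 0.18 (adjusted p = 0.115), and by 0.61 (0.0231) without WD WT NAMPT replicate 5.

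Cyp8b1 was at 156, 337, 324, 331 and 401 CPM in WD LKO NAMPT and higher than in WD WT NAMPT by 1.42 ± 0.30 (limma adjusted p = 0.0148). It was called under 3 of 8 alternatives (not with edgeR, DESeq2, no quality weights, only the groups compared or the replicate block) and in 8 of 11 fits with 1 library left out, the exceptions being WD WT NAMPT replicate 3 and WD LKO NAMPT replicates 2 and 5. Of 16 synthesis genes 3 rose, the others being Akr1d1 by 0.95 ± 0.21 (0.0188) and Slc27a2 by 0.47 ± 0.14 (0.0456), and the count was 6 without WD WT NAMPT replicate 5 or 6 or WD LKO NAMPT replicate 1, and 0 without WD WT NAMPT replicate 3 or WD LKO NAMPT replicate 2 or 5. Cyp7a1 differed by 0.54 ± 0.49 (adjusted p = 0.482). Nr1i3 rose by 0.85 ± 0.24 (0.0336), called under 2 of 8 alternatives and in 4 of 11 fits with 1 library left out, the exceptions being WD WT NAMPT replicates 1 to 4 and WD LKO NAMPT replicates 2, 3 and 5. Of 10 macrophage markers 3 fell, with summed levels of 367 to 788 CPM in WD LKO NAMPT beside 339 to 1040 CPM in WD WT NAMPT. The macrophage count was 7 without WD WT NAMPT replicate 5 or 6 or WD LKO NAMPT replicate 1, and 0 without WD WT NAMPT replicate 2 or 3 or WD LKO NAMPT replicate 2, 3 or 5. Of 10 stellate cell markers 2 fell (median -0.52), of 6 kept neutrophil markers 1 fell (median -1.12) and of 14 acute phase genes 2 fell (median -0.37). Among 6 kept cholangiocyte markers 1 fell, which was Sox9 by 1.44 ± 0.38 (limma adjusted p = 0.0282), while of 10 hepatocyte markers 1 fell and of 10 endothelial markers 0 were called. The sums were 358 to 577 CPM in WD LKO NAMPT and 306 to 758 CPM in WD WT NAMPT for stellate cell markers, and 5.29 to 21.6 CPM and 4.26 to 29.9 CPM for neutrophil markers. Each of these counts was 0 without WD LKO NAMPT replicate 2 or 5 and with edgeR or without quality weights, and the stellate cell count was 5 and the neutrophil count 3 without WD WT NAMPT replicate 6. Of 10 pericentral genes 4 rose, a count that ran from 0 to 8 when 1 library was left out. The synthesis, macrophage and pericentral counts were each 0 with edgeR, without quality weights and in a fit of only the groups compared. The part of these lists in the transporter differences was not tested.

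Whether the NAMPT difference itself differed between the genotypes was tested as an interaction. None of the 10 genes was called by limma, the edgeR quasi-likelihood test or DESeq2 (0.00711% of all genes were called), and 3 of 10 had an unadjusted p under 0.05, where 21.2% of all genes had. These were Slc10a1 at 0.85 ± 0.37 (limma adjusted p = 0.192), Slco1b2 at 0.77 ± 0.30 (0.152) and Abcc3 at 0.60 ± 0.25 (0.175), each positive, which means a less negative NAMPT difference in the libraries labelled LKO. Their 95% intervals were 0.08 to 1.63, 0.15 to 1.39 and 0.08 to 1.11. Without WD WT NAMPT replicate 6 the adjusted p-values were 0.0712 for Slc10a1 and 0.0681 for Slco1b2. Cyp8b1 had the value 1.88 ± 0.41 (adjusted p = 0.0582) and was called in 4 of 22 fits that left out 1 library. So the call of Slc10a1, Slco1b2 and Abcc3 in WT and its absence in LKO are not shown to differ.

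**Figure D4:**
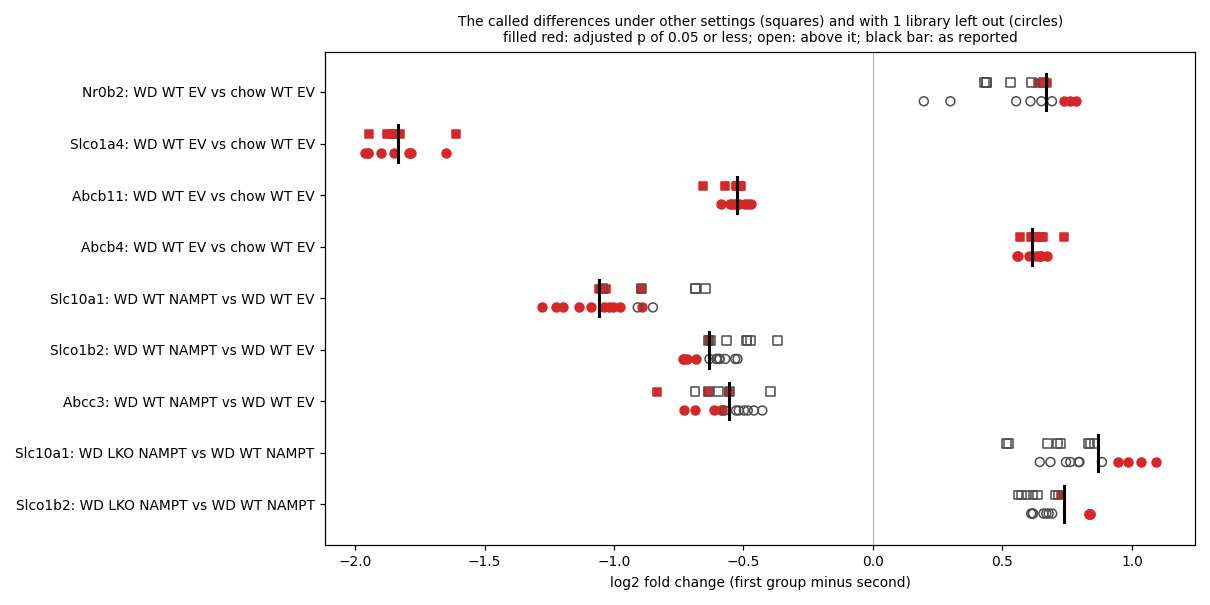
Log2 fold change (x axis) of the 9 called differences (y axis) as reported (black bar), under the 8 alternative settings (squares) and with 1 library left out (circles), filled red at an adjusted p of 0.05 or less. The diet differences of Slco1a4, Abcb11 and Abcb4 are red throughout, whereas the others turn open in part, although no value crosses 0.

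From library to library, several of the transporters varied together across the 22 Western diet libraries. Pearson's r of log2 CPM was 0.94 for Slc10a1 with Slco1b2, 0.82 for Slc10a1 with Abcb11 and 0.77 for Slco1b2 with Abcb11. With group means removed, r was 0.93, 0.85 and 0.79. Slco1b2 with Abcc2 had 0.82 (0.78 within groups) and Slc10a1 with Slco1a1 had 0.75 (0.80 within groups). Nr1h4 varied with Slc10a1 (0.78) and Slco1b2 (0.78). Abcb4 had within-group values of -0.03 with Slc10a1, 0.04 with Slco1b2 and -0.17 with Abcb11, and its highest was with Abcc3 (0.69). Within groups, Nr0b2 had values from -0.22 (with Abcc2) to 0.21 (with Slco1a4) over the other 9 genes, and its value with Nr1h4 was 0.12. These are descriptions over libraries of the same diet, which differ in depth and in macrophage marker level.

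The genes most like each transporter over the same 22 libraries were taken by Pearson's r. For Slc10a1 they were the cytochromes Cyp2c50 (0.96) and Cyp2e1 (0.95), and for Slco1b2 Phyh, the phytanoyl-CoA hydroxylase (0.97), and the aquaglyceroporin Aqp9 (0.97). For Slco1a1 they were the male-biased major urinary protein genes Mup11 (0.94) and Mup3 (0.93), for Abcc3 Slc25a10 (0.96) and Pdha1 (0.95), and for Abcb11 Slc25a15 (0.90) and Hgd (0.89). Abcc2 came closest to Cped1 (0.89) and Usf3 (0.88), Nr1h4 to Tprkb (0.88) and Zfp354b (0.87), Slco1a4 to Slc17a1 (0.84) and Ugt1a5 (0.80), Abcb4 to Ephx1 (0.84) and Ptk2 (0.76), and Nr0b2 to Sdhaf4 (0.76) and Cldn5 (0.74). The closest match to Nr0b2 was thus the weakest of the 10.

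**Figure D5:**
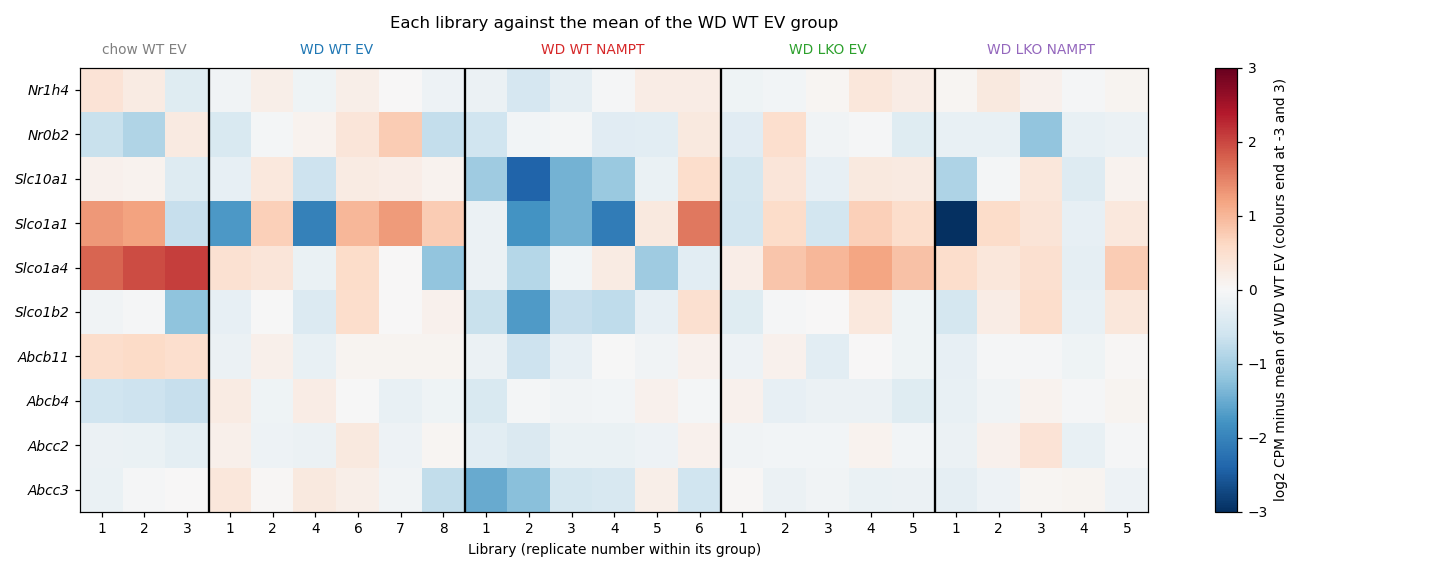
Log2 CPM of the 10 genes (rows) in each library (columns, replicate numbers within groups) minus the mean of WD WT EV, blue below and red above. WD WT NAMPT replicates 1 to 4 are blue for Slc10a1 and Slco1b2, replicate 6 is red for both, and the chow columns are red for Slco1a4 and Abcb11.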

How the data were processed

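Poly-A RNA of 25 mouse livers was sequenced as single 50-base reads. Per the submitters' processing notes and the study's methods, reads were aligned to GRCm38 with STAR and counted per gene with featureCounts (the notes give versions 2.5.1a and 1.4.6-p5, the methods give others). Whether strand was used in counting is not given in the sources used here. The deposited raw read counts per gene were used for every test. The deposited CPM values were counts scaled by the authors to each library's total, and the deposited RPKM values were these divided by transcript length. Recomputing them from the counts gave relative deviations of at most 5.1e-15 and 5.9e-14, and levels printed here are the same units rescaled by TMM factors.

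Following the study's methods, genes above 1 CPM in at least 2 libraries were kept (14065 genes, with 4 ribosomal RNA genes left out) and fitted with limma 3.58.1 (voom with sample quality weights) and edgeR 4.0.16 TMM factors in R 4.3.3, with 1 mean per group over all 25 libraries. P-values were two-sided and adjusted over all 14065 genes by the Benjamini-Hochberg method. Where a sentence gives values in parentheses after a first limma adjusted p, they are limma adjusted p-values. Each library was taken as 1 mouse, so the spread is that between mice. Within a group, no library was a copy of another, since counts of libraries of the same group differed by at least 15.1 chi-square units per degree of freedom. Libraries of different groups were not compared in this way.

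The 10 genes and the gene lists were chosen with earlier results of these data known. The rule for naming took the 10 genes, Cyp7a1 and Cyp8b1, up to 4 called genes per pathway list and 3 per marker list by smallest adjusted p, and the 2 genes most like each member by Pearson's r of log2(CPM + 0.5). Alternatives were edgeR's quasi-likelihood test, DESeq2 1.42.0, 2 other scalings, no filter, no quality weights, only the groups compared, a replicate block and leaving out each library. Running the lists under these alternatives was added after seeing the data. The diet result of 1 gene on the regulator list is not reported here.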

Additional observations from a re-analysis of the deposited data

Results flagged for a closer look

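In 40 groups of 4 to 10 libraries, 3 had a library separated from the others by more of the group's range than Dixon's 95% limit allows, and chance alone would give about 1 in 20. Nr0b2 was 20.93 CPM in WD LKO NAMPT replicate 3, where the other 4 libraries lay between 41.2 and 42.7 CPM. Slco1a1 was 640.4 CPM in WD WT NAMPT replicate 6, above the next highest library at 259 CPM. Abcc2 was 736.9 CPM in WD LKO EV replicate 4, while the other 4 libraries lay between 633 and 643.6 CPM.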

How the results depend on the processing

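With the diet, 3101 genes were called, against 1322 with edgeR's quasi-likelihood test, 1745 with DESeq2, 1970 without the filter and 1201 without quality weights, and 843 to 3171 with 1 library left out (lowest without chow replicate 2). For NAMPT in WT the 1890 called genes became 428 with quasi-likelihood, 1194 with DESeq2, 524 without the filter, 192 without weights, 653 with only the groups compared and 884 with the replicate block, and 132 to 2846 with 1 library left out (lowest without WD WT NAMPT replicate 3, highest without replicate 6). Of the 10 genes, 3 were called there, against 0 with quasi-likelihood, without weights or with only the groups compared, and 1 with DESeq2, library size only, no filter or the block, and 0 to 3 with 1 library left out. For NAMPT in LKO the 1 called gene became 0 with quasi-likelihood, no filter, no weights, only the groups compared or the block, and 6 with DESeq2 (0 to 5 with 1 library left out). For LKO EV against WT EV it was 0, 11, 5 and 2 with quasi-likelihood, DESeq2, only the groups compared and the block (0 to 5 with 1 library left out). Between the NAMPT groups 1120 became 45, 294, 120, 38, 12 and 412 with quasi-likelihood, DESeq2, no filter, no weights, only the groups compared and the block, and 0 to 2287 with 1 library left out. Of the 10 genes, 2 were called there, against 1 with median-of-ratios scaling, 0 under the other 7 alternatives and 0 to 3 with 1 library left out. For the interaction the 1 called gene became 0 with quasi-likelihood or no weights, 14 with DESeq2, 3 with library size only, 4 with no filter and 66 with the block (1 to 676 with 1 library left out). The cause was not tested. The diet count of the 10 genes was 3 to 4 with 1 library left out.

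Scaled by library size only, the median of all genes was 0.16 for NAMPT in WT, -0.12 between the NAMPT groups and -0.15 for the interaction, against 0.00, -0.01 and -0.01 with TMM. The split of higher and lower calls went from 1079 and 811 to 2010 and 271 for NAMPT in WT, from 588 and 532 to 204 and 636 between the NAMPT groups, and from 1414 and 1687 to 1053 and 2175 for the diet. The replicate numbers belong to different mice and were not used as a pairing in the main fit. Same-numbered libraries had correlations of their deviations from -0.38 to 0.42. Differently numbered libraries were not compared, so whether equal numbers share anything was not tested. With the replicate block Slco1a1 was called lower with the diet (-1.99, limma adjusted p = 0.0192).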
